A study of Cynodon dactylon with 10 samples.

Results

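The 197 contigs described here were low in submerged bermudagrass leaves and near their control level in droughted, salt-treated and heated leaves. They were 0.692% of the 28456 assembled contigs measured. They were chosen by their deposited levels in RPKM, read density corrected for contig length and library size. The control mean had to be under 500 RPKM. The log2 ratio of (mean + 1) to (control mean + 1) had to be at most -1.5 for submergence, and within 0.5 of 0 for drought, salt and heat, without scaling between libraries. All of these ratios, and the model calls given further on for the same contigs, are therefore descriptions of the choice and support nothing beyond it.

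Bermudagrass (Cynodon dactylon) is a perennial warm-season turf and forage grass. Wild-type seedlings 3 weeks old were put under water, denied water, given 400 mM NaCl or kept at 42 °C, each for 7 days, and an untreated control was sampled beside them. Leaf RNA was sequenced in 2 libraries per group, 10 in all. The labels give no cultivar, no number of plants per library and no statement that replicates were separate plants, so the spread between replicates may be technical.

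Water slows the exchange of gases between a leaf and the air and dims the light that reaches it. Under low oxygen, plant cells make less ATP by respiration and turn to fermentation, and ethylene builds up in submerged tissue. Flooded grasses are known either to save energy by holding back growth and biosynthesis or to elongate towards the surface. The contigs carry assembly identifiers without gene names, so none of them can be tied to these processes here, and identifiers are printed for 2 contigs only.

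Library totals ran from 751923 to 795078 RPKM. Ratios between low values, which step by single reads, gave library depths of 0.791 to 1.02 times that of control replicate 1, with the submergence libraries inside that range. The absolute number of reads is unknown. The libraries differed in composition: 542 and 582 contigs were at 0 under submergence, against 2164 to 2924 in the other 8. For 1142 contigs averaging 100 RPKM or more, replicates of a group differed with a robust SD of 0.05 to 0.08 on the log2 scale. RPKM is a share of a library's reads, and leaf samples hold many cell types, so a lower value cannot tell fewer cells of a type from less RNA per cell.

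Submerged leaves held 20.4% of the control's transcript level for the set as a whole. The summed level was 2163 and 2167 RPKM in the submergence libraries, 10398 and 10245 RPKM under drought, 10061 and 9905 RPKM under salt, 9660 and 9738 RPKM under heat, and 10607 and 10610 RPKM in the control. The submergence libraries stood apart from the other 8, which lay close together. As a share of all RPKM, the set held 0.288% ± 0.000285 under submergence and 1.36% ± 7.64e-05 in the control (SD, n = 2 each). The summed level was 97.3% of the control's under drought, 94.1% under salt and 91.4% under heat.

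**Figure D1:**
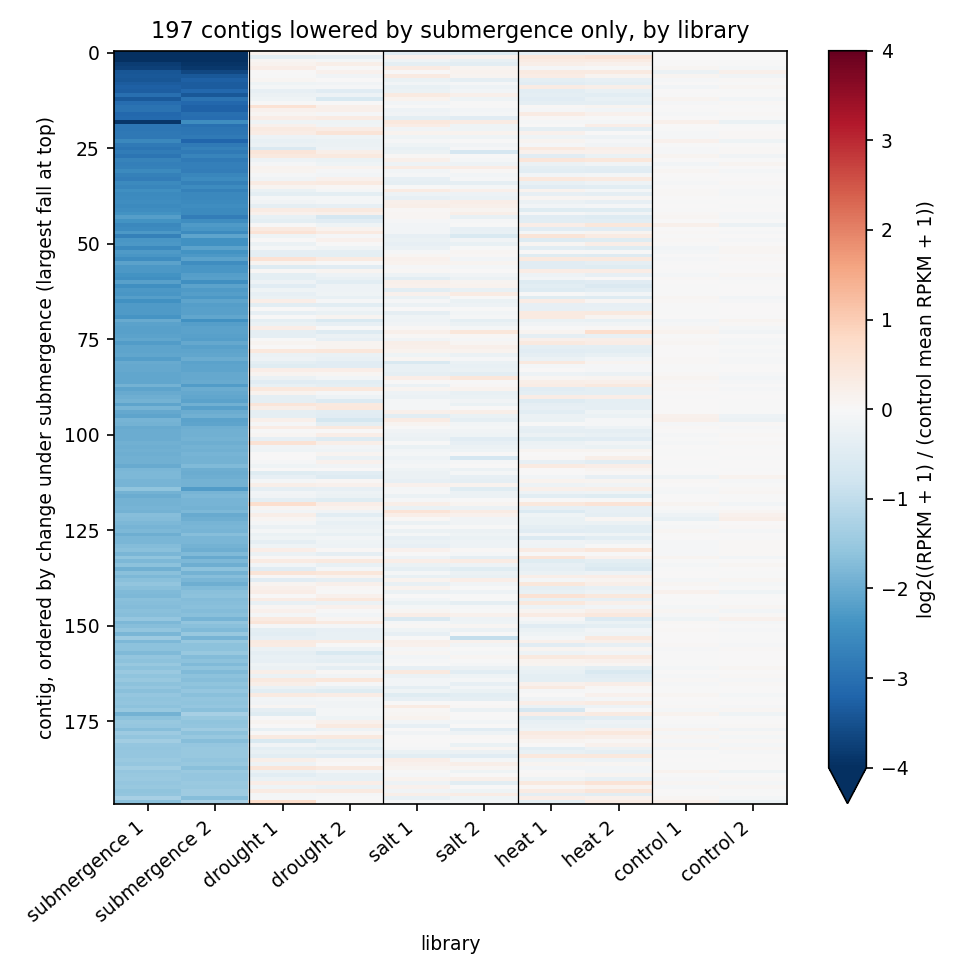
Each row is 1 of the 197 contigs and each column 1 of the 10 libraries; colour gives log2((RPKM + 1)/(control mean RPKM + 1)), blue for lower. Both submergence columns are blue throughout, as the rule requires, and the columns of drought, salt and heat stay pale because the rule kept them within 0.5 of 0.

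The most abundant contig of the set, comp58108_c0_seq1, is the only contig of its subcomponent, the assembly's grouping of sequences that may be transcripts of a gene. It had 86.0 and 81.7 RPKM under submergence, 607 and 628 RPKM under drought, 504 and 516 RPKM under salt, 346 and 345 RPKM under heat, and 478 and 489 RPKM in the control. It averaged 83.9 ± 3.04 RPKM under submergence and 483 ± 8.22 RPKM in the control (SD, n = 2 each), so 17.4% of the control level was left. Its unscaled log2 ratio to the control was -2.51 under submergence, 0.35 under drought, 0.08 under salt and -0.48 under heat. Drought was thus its highest group and heat the lowest after submergence. With the libraries scaled as for the model given further on, its heat ratio left the window and its control mean passed 500 RPKM.

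The contig with the deepest fall among those with a control mean of at least 20 RPKM was comp56733_c0_seq6. It had 4.44 and 3.25 RPKM under submergence, 329 and 316 RPKM under drought, 218 and 210.3 RPKM under salt, 233 and 240.04 RPKM under heat, and 304 and 298 RPKM in the control. Only 1.28% of its control level was left, with an unscaled log2 ratio of -5.96, the lowest of all 197. Salt, at -0.49, was close to the edge of its window. With the libraries scaled as for the model, this contig fell below the windows of both salt and heat.

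Other abundant contigs differed in how much was left. The contig of rank 2 by control level had 16.2 and 18.2 RPKM under submergence, 447 and 398 RPKM under drought, 370.02 and 346 RPKM under salt, 526 and 531 RPKM under heat, and 429 and 413 RPKM in the control. It kept 4.09% of its control level under submergence, with heat the highest group. The contig of rank 4 had 9.29 and 10.5 RPKM under submergence, 284 and 299 RPKM under drought, 419 and 422 RPKM under salt, 511 and 547 RPKM under heat, and 376 and 374 RPKM in the control. It kept 2.64%, and its heat ratio of 0.497 lay just inside the window. The contig of rank 7 fell least among the 10 most abundant and kept 31.6%. It had 80.7 and 80.8 RPKM under submergence, 215 and 219 RPKM under drought, 247 and 252 RPKM under salt, 277 and 268 RPKM under heat, and 248 and 262 RPKM in the control.

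**Figure D2:**
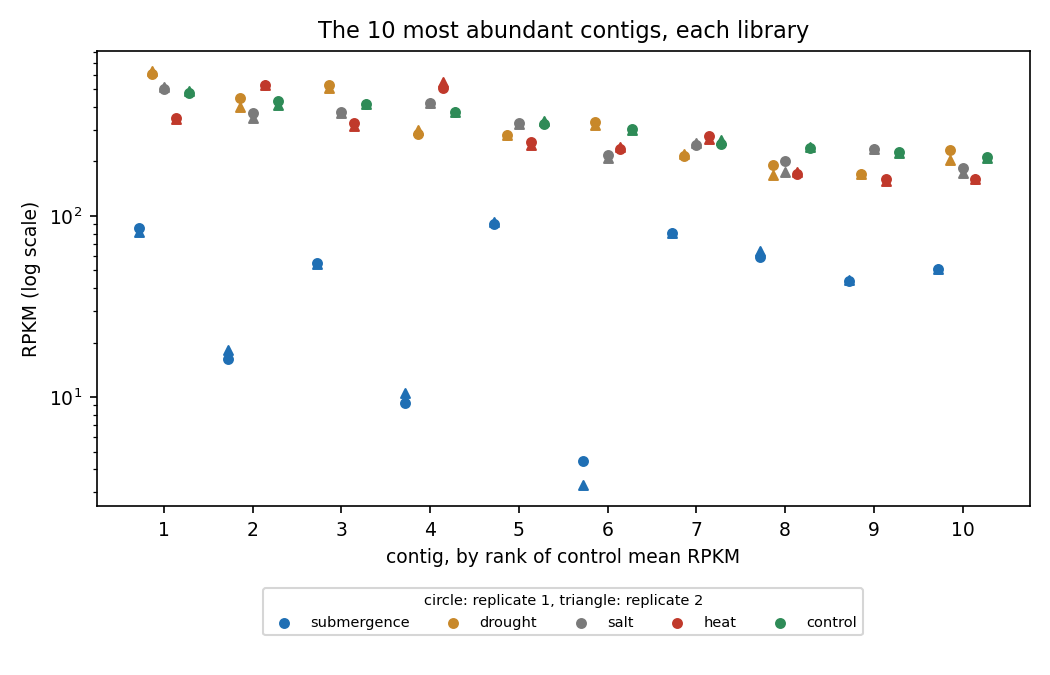
RPKM on a log scale for the 10 contigs of the set with the highest control mean, in rank order; each point is a library, circles replicate 1 and triangles replicate 2. The submergence points lie below those of the other groups for all 10, from 3.25 RPKM for the contig of rank 6 up to 92.6 RPKM for that of rank 5.

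Most of the contigs were of moderate abundance in unstressed leaves. Their control means ran from 2.19 to 483 RPKM with a median of 26.1 RPKM, against a median of 8.13 RPKM over all contigs. A ratio of -1.5 needs some level to fall from, and among the 22977 contigs with a control mean of at least 1.83 RPKM, the least that allows it, the median was 11.1 RPKM. By control level, 32 contigs of the set were under 10 RPKM, 110 at 10 to 50, 25 at 50 to 100 and 30 at 100 to 500 RPKM. The 25 most abundant held 47.3% of the summed level under submergence and 50.9% in the control.

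The falls were mostly partial, and 1 contig was listed at 0 in both submergence libraries. A median of 20.8% of the control level was left, with an interquartile range of 13.7% to 26.3% and a highest value of 34.1%. Under 5% was left for 14 contigs, and under 10% for 25. The log2 ratio was at most -2 for 96 contigs, at most -3 for 19 and at most -4 for 3. All 3 were among the 6 most abundant of the set.

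The contig at 0 had 9.19 and 8.44 RPKM under drought, 12.4 and 10.1 RPKM under salt, 11.7 and 10.2 RPKM under heat, and 10.3 and 8.49 RPKM in the control. A further 2 contigs were at 0 in 1 submergence library, and 24 in all averaged under 1 RPKM under submergence. None of the 197 was at 0 in any of the other 8 libraries, and each of them reached 1 RPKM in all 8. The rule held the other group means near the control, so this was largely fixed by the choice.

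By abundance, the median log2 ratio was -1.84 for contigs with a control mean under 10 RPKM, -2.01 at 10 to 50, -1.96 at 50 to 100 and -2.06 at 100 to 500 RPKM. The 1 RPKM added to both means understates the change of low contigs, and without it the median share left was 15.8%, 20.8%, 24.8% and 23.4% in that order. Least was thus left in the contigs under 10 RPKM, but the rule itself allows less there, because it adds 1 RPKM. The highest share left was 26.7% in that band and 33.2%, 33.5% and 34.1% in the higher bands, in order. Nothing is read from the difference. The share left ranged more widely within a band than between bands, for example from 1.28% to 34.1% at 100 to 500 RPKM.

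**Figure D3:**
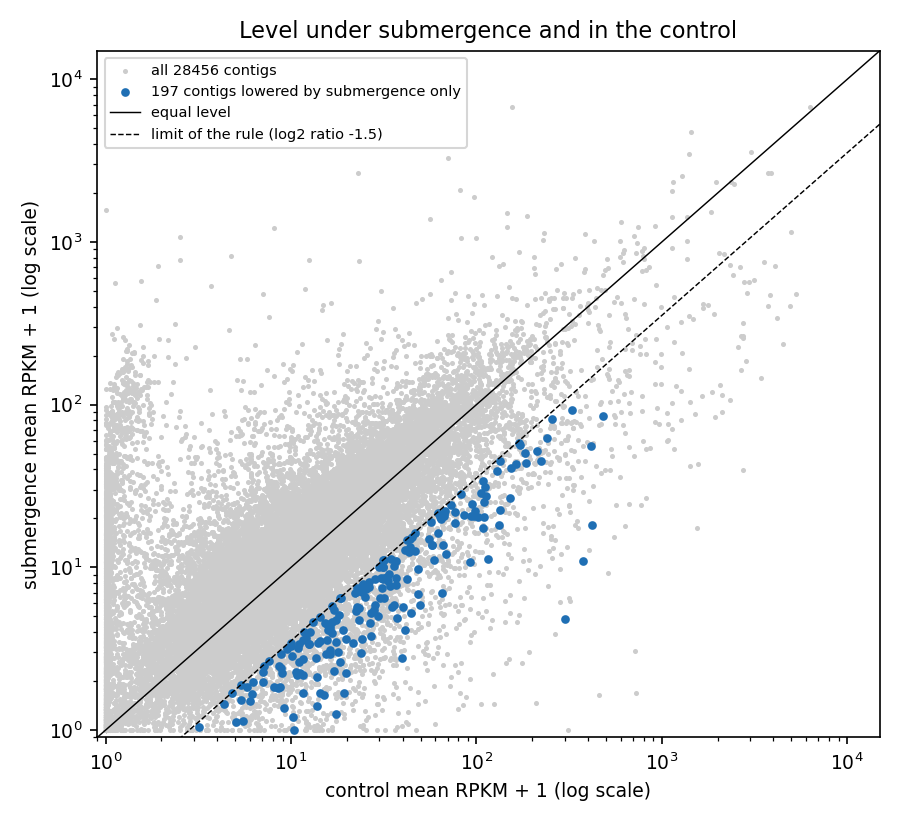
Submergence mean against control mean, both as RPKM + 1 on log scales; grey points are all 28456 contigs, blue points the 197, the solid line equal levels and the dashed line the limit of -1.5. The blue points start at the dashed line, most of them lie near it, and 3 abundant contigs lie far below.

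Levels in the submergence libraries did not overlap with any other library. In all 197 contigs both submergence libraries lay below the other 8, and this was so for 16.1% of the 26884 contigs that passed the filter of 1 RPKM in 2 libraries. The rule used these levels, so nothing is read from the excess. The lowest of the other 8 libraries exceeded the higher submergence library at least 2-fold in 194 contigs and at least 3-fold in 128. The median of this gap was 3.40-fold over the 196 contigs with a value above 0, and the narrowest was 1.77-fold. Replicates of submergence differed by a median of 0.11 in log2(RPKM + 1) over the set, against 0.06 for replicates of the control. The set's median level was 4.86 RPKM under submergence and 26.1 RPKM in the control, so these differences were not compared at equal level.

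The limits of the rule cut through a continuum. The 3 contigs nearest to the fall limit on the inside had log2 ratios of -1.501, -1.503 and -1.504, and the nearest 3 on the outside -1.496, -1.495 and -1.492. Just inside and just outside the heat window lay contigs at -0.499 and -0.5003. A further 5 contigs met everything except the limit of 500 RPKM, with control means of 554 to 3126 RPKM, submergence means of 85.5 to 581 RPKM and ratios of -1.89 to -2.68.

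Contigs lowered by submergence alone were a small part of those that submergence lowered. A ratio of at most -1.5 was reached by 2149 contigs, and the 197 were 9.17% of them. Of the 2149, 118 had a control mean of 500 RPKM or more, which the rule leaves out. The totals lowered by heat, drought and salt given below were also counted without a limit on the control mean. Under heat 1532 of the 2149, or 71.3%, were at -0.5 or below, while 967 (45.0%) were so under drought and 246 (11.4%) under salt. Over all contigs the lower quartile of the ratio was -0.35 under heat, -0.29 under drought and -0.07 under salt. The order of the stresses was thus the same over all contigs by this measure and is not particular to those lowered by submergence. The quartiles are another measure than the shares, and the sizes were not compared. The same limits applied to heat gave 80 contigs, 4.04% of the 1978 that heat lowered, and applied to drought gave 16, or 1.98% of 807. Salt lowered 10 contigs that far and none by itself. Another 216 contigs were lowered to -1.5 by both submergence and heat and kept within 0.5 by drought and salt. Their median control mean was 29.6 RPKM, beside 26.1 RPKM for the 197 and 13.8 RPKM for the 80 lowered by heat alone.

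Which contigs met the rule varied between replicates. Applied to the 5 libraries of replicate 1 alone, the rule chose 196 contigs. In the 5 libraries of replicate 2, their median log2 ratio for submergence was -1.94, the same as in the libraries that chose them. Of the 196, 173 reached -1.5 again, 195 reached -1 and 1 was at 0.93, higher than the control. The windows for drought, salt and heat were all met again by 141, and the whole rule by 124 (63.3%).

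Choosing in replicate 2 gave 203 contigs, with a median of -1.92 there and -1.91 in replicate 1. Of these, 170 reached -1.5 again, 200 reached -1, and 143 met all 3 windows. By construction the same 124 contigs met the whole rule in both, which was 61.1% of the 203. The fall is 1 limit and the windows are 3 that must hold together, so these counts cannot be ranked against each other. With the windows widened to 1, 191 of the 196 and 201 of the 203 met them. These counts describe how membership moves between libraries that may be technical replicates.

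A linear model over all contigs with scaled libraries (limma, Benjamini-Hochberg adjusted p under 0.05) gave calls under the other stresses too. Under drought it called 106 of the 197, where 60.9% of all tested contigs were called. Of these 82 were lower and 24 higher, beside 30.1% of all contigs lower and 30.9% higher. Under heat it called 121, where 72.0% of all were called. Of these 117 were lower and 4 higher, beside 36.3% lower and 35.7% higher over all contigs. Under salt it called 72, where 25.9% of all were called. Of these 64 were lower and 8 higher, beside 3218 lower and 3732 higher of all 26884 contigs tested. The salt count was 47 without control replicate 1, 39 without control replicate 2, 45 without salt replicate 1 and 46 without salt replicate 2. Over all contigs 4625 were called under salt without control replicate 1, against 6950 with it. Each comparison shares the control libraries, and the rule used these levels and bounded the changes, so nothing is read from the counts about the set.

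The shares called in none and in all 3 of the other stresses were near those over all contigs. No share over all contigs was computed for calls in 1 or 2 of them. In none of drought, salt and heat were 37 called, or 18.8%, beside 16.3% of all contigs tested. In all 3 were 38 called, where 18.9% of all contigs were. All 197 were called lower under submergence, where 35.3% of all contigs were called lower, and the rule had fixed this. The scaled log2 change had a median of -2.25 under submergence, -0.18 under drought, -0.17 under salt and -0.34 under heat. Over all contigs tested the median was 0.05 under submergence and 0.00 under each of the others.

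The balance of lower and higher calls depended on the scaling. The values as deposited, which the rule used, had a median log2 change over all tested contigs of 0.33 under submergence, 0.14 under heat, 0.06 under salt and 0.04 under drought. On that scale the median of the set was -1.98 under submergence and -0.11 under heat. The heat calls in the set were then 76 lower and 33 higher, beside 29.0% of all contigs lower and 44.6% higher. The drought calls were 61 lower and 34 higher, beside 26.4% and 34.8% of all contigs. The salt calls were 43 lower and 11 higher, beside 7.71% and 19.4% of all contigs. All 197 remained called lower under submergence, where 26.2% of all contigs were. When the rule was applied to scaled levels it gave 229 contigs, of which 121 were among the 197 and 108 were not. The 76 that dropped out all left at least 1 window, 64 of them through lower heat levels, 15 through drought and 5 through salt. For these 64, nearness to the control under heat holds for the deposited values and not for the scaled ones. The contigs named above by identifier are among these 64.

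**Figure D4:**
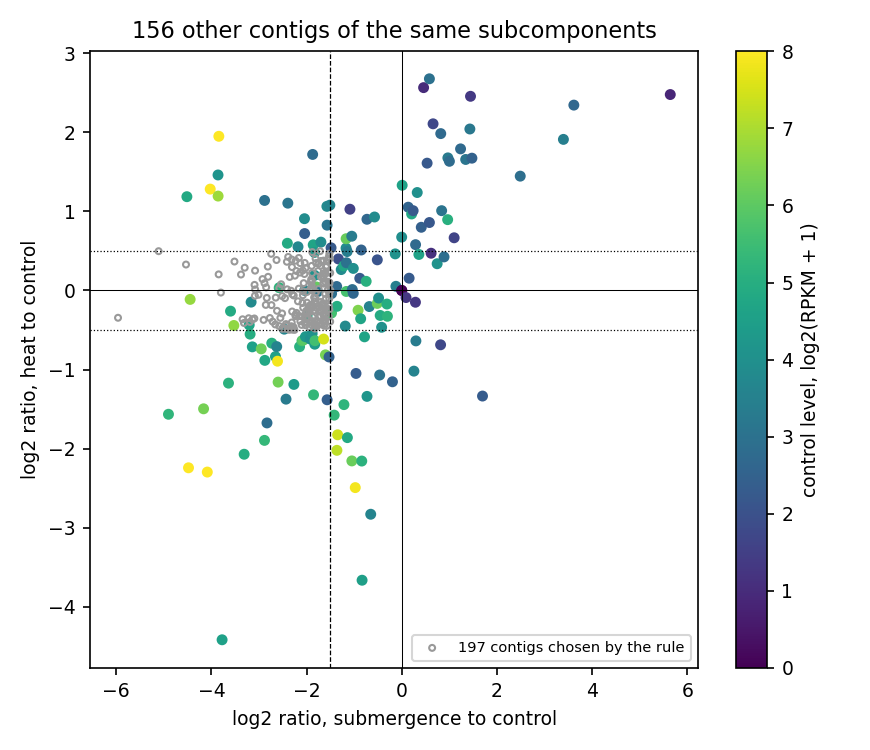
Log2 ratio to the control under heat (vertical) against that under submergence (horizontal), unscaled, for the 156 contigs outside the set that share a subcomponent with it, coloured by control level as log2(RPKM + 1); open grey circles are the 197. The dashed line is the limit of -1.5 and the dotted lines the heat window of 0.5. Of the filled points 89 lie at -1 or below and 12 at 1 or above, the highest at 5.64.

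Other contigs of the same subcomponents give a view of transcripts that the rule did not choose. The 197 contigs fell into 173 subcomponents, 21 of which held 2 or 3 of them. Of the 197, 108 shared their subcomponent with at least 1 other contig, or 54.8% beside 49.2% of all contigs. Reads may be split between such contigs, so their single values are uncertain and not independent of the set. The other contigs numbered 156 in 71 subcomponents, and their median unscaled log2 ratio under submergence was -1.17, beside 0.33 over all contigs. Of the 154 tested, the fit called 115 lower and 22 higher under submergence, beside 35.3% lower and 39.6% higher over all contigs.

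A ratio of -1.5 or less was also reached by 63 of the 156, beside 7.55% of all contigs. Each of these 63 failed the rule by a window, 50 of them at heat, 26 at drought and 8 at salt. At the other end 12 had a ratio of 1 or above, in 5 subcomponents, beside 5694 of all 28456 contigs. The levels of all contigs in a subcomponent were summed as a rough group level, since RPKM of sequences that differ in length does not add up exactly. Of the 71 sums, 65 were at -1 or below, 53 at -1.5 or below and 31 met the whole rule, with a median of -1.76. These sums include the chosen contigs, which held a median of 48.3% of their subcomponent's control sum and at most 94.4%. The choice therefore lowered the sums in part, and no share over all subcomponents was computed. Nothing is read from these counts.

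In the subcomponent of comp56733_c0_seq6, 2 of its 7 contigs belong to the set. Its sum was 38.2 RPKM under submergence, 547 RPKM under drought, 340.1 RPKM under salt, 459 RPKM under heat and 471 RPKM in the control, a log2 ratio of -3.59 under submergence. The named contig held 10.1% of the sum under submergence and 63.9% in the control. A partner outside the set had 3.47 and 4.42 RPKM under submergence and 111 and 103 RPKM in the control, and failed the rule only at salt, with -0.54. The contig with the most left had 12.2 and 12.4 RPKM under submergence and 6.22 and 6.18 RPKM in the control. The named contig, the most abundant of the 7 in the control, was thus not the most abundant under submergence.

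In 3 of the 71 subcomponents the sum was at or above the control under submergence, and in 3 more it was between the control and -1. The widest split was found, after the values were seen, in a subcomponent of 10 contigs with 1 in the set. That contig had 3.49 and 2.03 RPKM under submergence and 29.4 and 22.8 RPKM in the control. Partners included contigs with 90.6 and 88.2 RPKM under submergence against 0.70 and 0.92 RPKM in the control, and with 101 and 125 RPKM under submergence against 8.45 and 11.2 RPKM in the control. Others were lower, such as the most abundant, which had 10.7 and 10.1 RPKM under submergence and 254 and 253 RPKM in the control. The sum of the 10 was 415 RPKM under submergence and 683 RPKM in the control, a log2 ratio of -0.72.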

How the data were processed

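Leaf RNA of 5 groups was measured in 2 libraries each. Per the file headers, the authors deposited RPKM, given here with 2 decimals in 1 column per library. The name of the table speaks of read counts, which its fractional values contradict. DESeq 1.18.0, HTSeq 0.6.1, Bowtie2 2.2.3 and TopHat2 2.0.12 appear in the submitters' processing notes with no role; how the contigs were assembled is not stated there. The members, lists and tests were chosen with earlier results of these data known.

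The rule was applied to the deposited RPKM without scaling. For the fit, each library was scaled by its trimmed mean log ratio to control replicate 1, leaving out 30% of ratios and 5% of levels at either end. A contig entered the test if 2 or more libraries reached 1 RPKM, which held for 26884 of 28456 and for all 197 members. Log2(RPKM + 1) was modelled in limma 3.58.1 (R 4.3.3) with group as the only term, a variance trend and 5 residual degrees of freedom. The fit was also run on simulated data in which few contigs changed, and only under submergence. That run cannot show how the fit does with changes as widespread as those measured. Relative depth came from the commonest ratio between low values. Identifiers were printed for the member with the highest control mean and for the one with the lowest ratio among those of at least 20 RPKM; other members are given by rank. Other values and the figures were made in Python 3.11.15 with pandas 2.3.3, numpy 2.4.6 and matplotlib 3.10.9. Alternatives covered scaling, pseudocount, filter, libraries in the fit, a replicate block, the variance trend, the limits of the rule and leaving out each library.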

Additional observations from a re-analysis of the deposited data

How the results depend on the processing

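The number of contigs that met the rule depended on its limits. It was 412 with a submergence limit of -1 and 96 with -2, 62 with a window of 0.3 and 646 with a window of 1. Leaving out each library in turn gave 197 to 206, of which 173 to 194 were among the 197. The median log2 change of the 197 under submergence was -1.98 without scaling, -2.22 with median-ratio scaling, -2.53 and -2.05 with 0.1 and 2 RPKM added, -2.27 with a filter of 5 RPKM and -2.28 to -2.25 with a library left out. All 197 were called lower under submergence in the alternative fits, except that the filter of 5 RPKM left 191 to test, all called lower. Members called under salt numbered 39 to 81 and all contigs called under salt 4625 to 6995 with a library left out. The labels do not say whether replicate numbers pair the libraries. Replicate differences correlated at -0.05 to 0.12 between groups and above 0.1 in 1 of 10 pairs of groups. These values show no large shift shared by replicate number but cannot exclude a pairing. With the replicate block, 197 members were called lower under submergence, and 101, 63 and 122 were called under drought, salt and heat. With 2 libraries a group and unknown read totals, levels near 0 under submergence are the least certain.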
